A study of Mus musculus with 8 samples.

Results

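A set of 9 genes of red blood cell formation were followed in single mouse embryos. They were taken by name, but with earlier results of these data known. They are the transcription factors *Gata1*, *Klf1*, *Tal1*, *Lmo2* and *Nfe2*, the erythropoietin receptor *Epor*, the heme synthesis enzyme *Alas2*, the anion exchanger *Slc4a1* and the transferrin receptor *Tfrc*. These 9 of the 20656 genes that could be named on the array were read by 11 probes on 20 spots, 1 probe for each of 8 genes and 3 probes for *Tfrc*. A probe was assigned to a gene when its RefSeq transcript mapped to that symbol. Only *Alas2* among the 9 is an enzyme of heme synthesis, so the other enzymes of the pathway were read from a separate list.

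The embryos were all wild type and came from wild-type mothers. The labels put both parents on a C57bl6/129 background, whereas a supplement of the study gives the mothers as C57BL/6J, and the files do not settle which holds. They differed in the father, which carried either no mutation (*Eed* wt/wt, called WT fathers) or 1 copy of the hypomorphic Eedl7Rn5-1989SB allele (*Eed* hypo/wt, called HET fathers). EED is a core subunit of Polycomb Repressive Complex 2, which places the repressive mark H3K27me3, so the comparison asked whether a father with less EED function left a trace in offspring that did not inherit the mutation. Whole embryos were collected at day 8.5 after the plug (E8.5) and matched for stage, and RNA from 4 embryos per father group, 2 females and 2 males in each, was hybridised to Agilent 8x60K one-colour arrays. The labels name no treatment. The sires of single embryos are not named in the labels, and WT father replicates 2, 3 and 4 share the first part of their sample code. The study's breeding plan gives 2 WT fathers, whereas a supplement figure gives n = 4 for each genotype. The p-values therefore measure the spread between these embryos, which may share a father and may not be independent litters.

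Primitive red cells arise in the blood islands of the yolk sac and enter the embryo when the heart begins to beat, which is close to the stage sampled here. GATA1, with its partners TAL1 and LMO2 in a DNA-bound complex and with KLF1 at CACCC sequences, switches on the globins, the heme pathway and the red cell membrane proteins. Erythropoietin signalling through EPOR supports the survival and division of these cells, and iron for heme enters through the transferrin receptor.

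Signals are given as log2 of the array's processed signal relative to the 75th percentile of that array, so that 0 is the level of the 75th percentile and 1 unit is a 2-fold difference. A level was compared only with the same probe's level in other embryos. Each father group lay on a slide of its own, so slide and father cannot be told apart, whereas each slide held both sexes. Between 31826 and 42520 spots per array were well above background, and WT father replicate 1 and HET father replicate 3 had the most (42520 and 41799). The local background was highest in HET father replicate 4 (133 units against 30 to 51 units in the others), and all 11 probes of the 9 genes were well above background on all 8 arrays with no saturated spot. *Xist*, *Ddx3y* and *Eif2s3y* matched the labelled sex in all 8 embryos.

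One embryo stood apart in these genes, the male WT father replicate 4, and the main results are given with and without it. Of the 9 genes, 7 had their lowest value in this embryo, a share of 77.8% against 11.1% of the 33093 probes tested, and 0 were highest there, against 9.97%. It was picked out because of these values, so this is a description without a test. Leaving it out can also narrow the spread between embryos, so differences by father or sex without it are given without p-values.

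Promoter sequence is shown for *Gata1*, *Klf1*, *Epor* and *Alas2*, whose values correlated with each other over the 8 embryos (r of 0.84 to 0.95 between pairs of them) and which each have 1 window in the RefSeq table (GRCm38.p6). Without WT father replicate 4 those r were 0.48 to 0.66 and 0.97 for *Gata1* with *Epor*. Each line gives the 250 bases before the start of a RefSeq transcript, 5′ to 3′ on the gene's strand. Capitals mark GATA words (AGATAA or AGATAG or TGATAA or TGATAG) and CACCC words (CCNCNCCC), searched on both strands with overlapping matches joined.
Gata1 (chrX:7967911-7968160, - strand): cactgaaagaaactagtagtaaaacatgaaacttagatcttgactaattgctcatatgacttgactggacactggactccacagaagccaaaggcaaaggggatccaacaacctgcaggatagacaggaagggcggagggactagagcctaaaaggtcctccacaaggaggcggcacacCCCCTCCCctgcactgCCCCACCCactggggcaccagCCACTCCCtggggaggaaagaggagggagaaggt
Klf1 (chr8:84901732-84901981, + strand): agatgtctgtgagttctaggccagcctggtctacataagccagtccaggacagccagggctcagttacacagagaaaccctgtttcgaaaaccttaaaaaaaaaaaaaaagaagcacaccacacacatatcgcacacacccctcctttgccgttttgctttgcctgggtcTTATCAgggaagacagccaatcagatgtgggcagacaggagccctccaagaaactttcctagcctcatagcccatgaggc
Epor (chr9:21963577-21963826, - strand): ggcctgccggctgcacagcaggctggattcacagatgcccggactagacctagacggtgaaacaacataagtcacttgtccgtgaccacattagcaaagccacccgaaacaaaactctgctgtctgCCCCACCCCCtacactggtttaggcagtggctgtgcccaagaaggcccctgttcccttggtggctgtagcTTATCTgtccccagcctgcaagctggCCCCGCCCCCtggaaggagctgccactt
Alas2 (chrX:150547167-150547416, + strand): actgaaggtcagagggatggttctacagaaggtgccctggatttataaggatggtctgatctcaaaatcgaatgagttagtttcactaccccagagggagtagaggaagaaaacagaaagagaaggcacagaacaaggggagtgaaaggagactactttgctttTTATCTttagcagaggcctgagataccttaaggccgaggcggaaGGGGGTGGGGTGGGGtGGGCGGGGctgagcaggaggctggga

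*Alas2* held 1 GATA word at positions -86 to -81 from the transcript start and 4 CACCC words between -42 and -19. *Epor* had the same pair of elements, with a GATA word at -54 to -49 and 4 CACCC words in 2 clusters. In *Klf1* the window held a GATA word at -80 to -75 and no CCNCNCCC match, although the letters CACCC occur in it. In *Gata1* it held 3 CACCC words between -71 and -27 and no GATA word. The CCNCNCCC pattern misses some stretches with the letters CACCC and matches others without them, such as CCCCGCCC in *Epor*. Among all 32851 promoter windows of this length, 26.5% held a GATA word and 45.9% held a CACCC word, so these words are common and a match describes the letters only. The E-box CANNTG, bound by TAL1 with its partners, occurred in the windows of *Gata1* (1), *Klf1* (1) and *Epor* (2) and in 66.2% of all windows. The NFE2 word TGANTCA was in none of these 4 windows and in 6.75% of all. *Tal1* and *Tfrc* had 2 windows each, and those of *Lmo2*, *Nfe2* and *Slc4a1* were not analysed here.

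**Figure D1:**
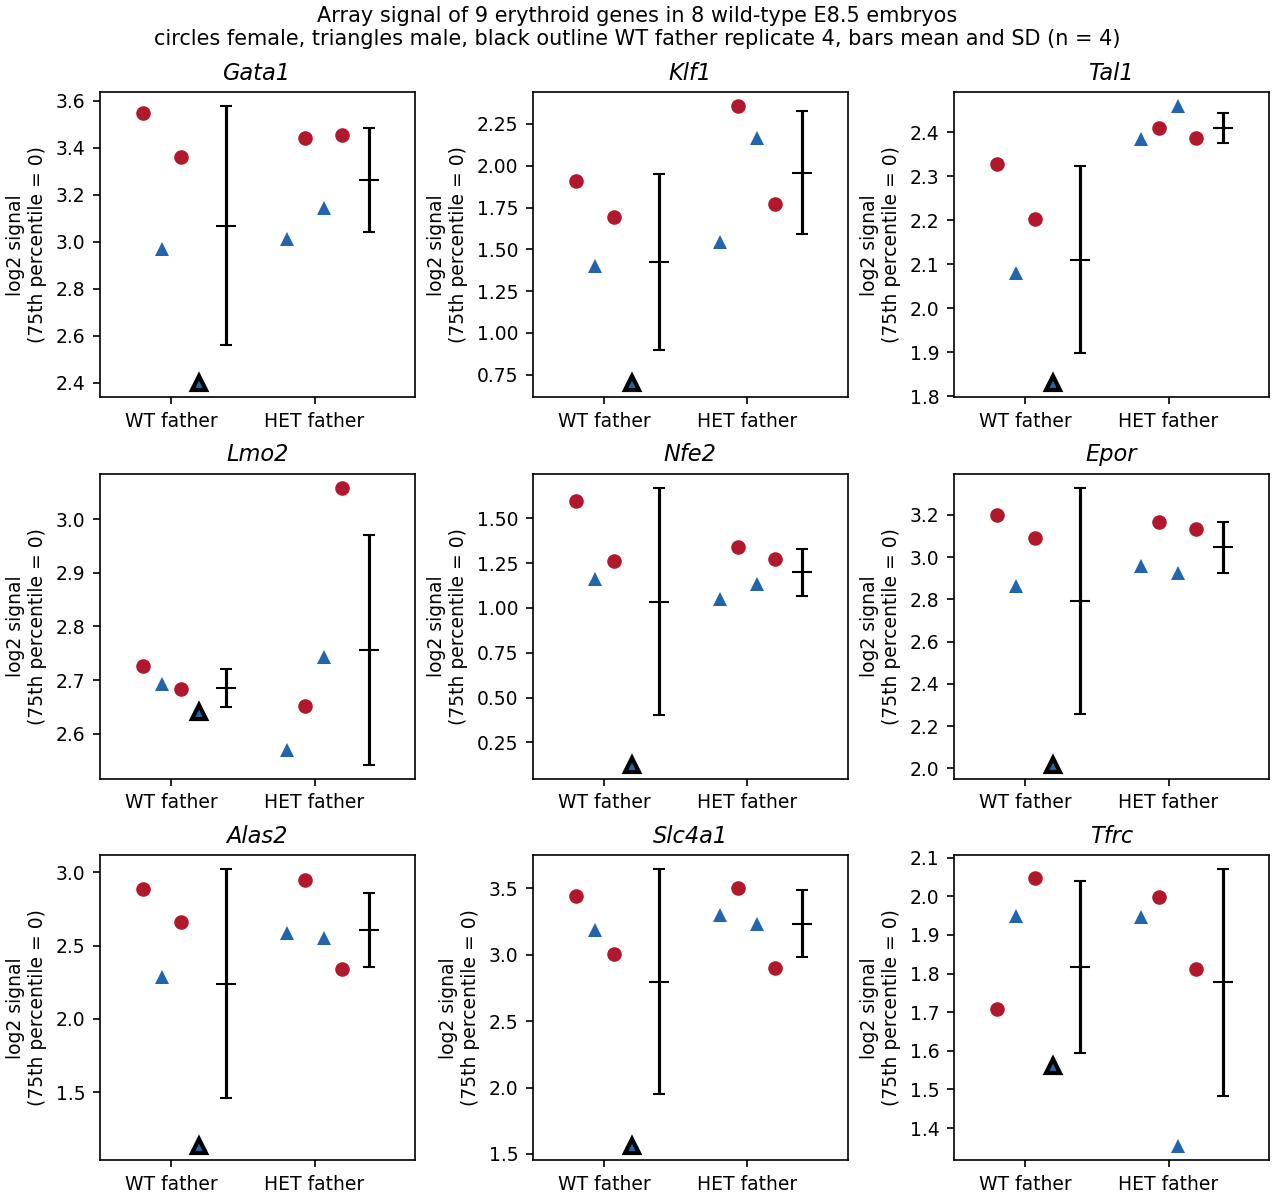
Signal of the 9 genes (brightest probe of each) in the 8 embryos, as log2 relative to the 75th percentile of the array on each vertical axis, with the axis range set per gene. Circles are females, triangles males, the black outline marks WT father replicate 4, and bars give the mean and SD of 4 embryos; the outlined embryo is lowest in 7 of 9 panels, and every *Tal1* value with HET fathers lies above every value with WT fathers.

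*Gata1*, the X-linked factor on which red cell maturation depends, read 3.55, 2.97, 3.36 and 2.40 in WT father replicates 1 to 4 and 3.01, 3.44, 3.14 and 3.45 in HET father replicates 1 to 4. The father groups overlapped, and the 2 lowest of the 8 values were both in males with WT fathers. The mean was 3.07 ± 0.51 (SD, n = 4) with WT fathers and 3.26 ± 0.22 (SD, n = 4) with HET fathers. The difference of 0.20 on the log2 scale (SE 0.25, 95% interval -0.40 to 0.79) was smaller than the spread between embryos.

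*Klf1*, the CACCC-binding activator of adult-type globin and of many red cell genes, read 1.91, 1.40, 1.69 and 0.70 with WT fathers and 1.54, 2.36, 2.16 and 1.77 with HET fathers, in replicate order. It had the largest mean difference by father of the 9 genes, 0.53 (SE 0.29, 95% interval -0.15 to 1.22), which was not past the test (limma, unadjusted p = 0.109). Without WT father replicate 4 it was 0.29.

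*Tal1*, the basic helix-loop-helix factor needed for the first blood cells, read 2.33, 2.08, 2.20 and 1.83 with WT fathers and 2.39, 2.41, 2.46 and 2.39 with HET fathers. The groups did not overlap, as was true of 3.23% of all tested probes. The HET father embryos lay within a narrow band (SD 0.03, n = 4) and the WT father embryos spread more widely (SD 0.21, n = 4). The difference of 0.30 (SE 0.11, 95% interval 0.04 to 0.56), or 1.23-fold, had an unadjusted p of 0.028 and an adjusted p of 1.00 in limma. The exact two-sided permutation test gave p = 0.0286, the smallest that 4 against 4 embryos allow and the value fixed by the lack of overlap. Without WT father replicate 4 the difference was 0.21 (SE 0.08).

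*Lmo2*, the adaptor that joins TAL1 to GATA1 and that endothelial cells also express, read 2.73, 2.69, 2.68 and 2.64 with WT fathers and 2.57, 2.65, 2.74 and 3.06 with HET fathers. The whole range over 8 embryos was 1.40-fold, the smallest of the 9 genes, and WT father replicate 4 lay only 0.05 below the median of the others. *Nfe2*, the erythroid subunit of the factor NF-E2, behaved differently, with 1.60, 1.16, 1.26 and 0.12 in WT father embryos and 1.05, 1.34, 1.13 and 1.27 in HET father embryos. Its differences by father were 0.16 (SE 0.30) with all embryos and -0.14 (SE 0.13) without WT father replicate 4.

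*Epor* read 3.20, 2.86, 3.09 and 2.02 with WT fathers and 2.96, 3.17, 2.93 and 3.13 with HET fathers. Apart from the value of 2.02, all embryos lay between 2.86 and 3.20. The difference by father of 0.25 (SE 0.25) became -0.01 (SE 0.11) without WT father replicate 4.

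*Alas2*, the X-linked enzyme that starts heme synthesis in red cells, read 2.89, 2.29, 2.66 and 1.13 with WT fathers and 2.59, 2.95, 2.55 and 2.34 with HET fathers. The value of 1.13 was 2.74-fold below the median of the other 7 embryos. The difference by father was 0.36 (SE 0.37) with all 8 embryos and -0.01 (SE 0.19) without that one.

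*Slc4a1*, which encodes band 3, the chloride-bicarbonate exchanger and anchor of the red cell membrane skeleton, read 3.44, 3.19, 3.0 and 1.56 with WT fathers and 3.30, 3.50, 3.23 and 2.90 with HET fathers. It varied the most of the 9 genes, 3.85-fold from the lowest to the highest embryo, and WT father replicate 4 was 3.19-fold below the median of the others. Its difference by father was 0.43 (SE 0.40), and without that embryo it was 0.02 (SE 0.17).

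*Tfrc*, which takes up transferrin-bound iron in red cell precursors and in other dividing cells, was read by 3 probes that ranked the embryos differently. The brightest (10 spots) read 1.71, 1.95, 2.05 and 1.56 with WT fathers and 1.95, 2.00, 1.35 and 1.81 with HET fathers, and its lowest embryo was HET father replicate 3. On the second probe the same embryo was the highest, at 1.47, and the others ran from 0.42 to 1.41. The dimmest probe ran from -3.04 in HET father replicate 1 to -2.31 in WT father replicate 1. All 3 probes had a lower mean with HET fathers, by -0.04 (SE 0.17), -0.25 (SE 0.24) and -0.21 (SE 0.16), and none passed the test.

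By father, 0 of the 11 probes were called at an adjusted p under 0.01 with at least a 2-fold change (limma), against 0.0% of the 33093 probes tested. At an unadjusted p under 0.05 there was 1 of 11, the *Tal1* probe, against 4.4% of all tested probes, of which 2.11% in the same direction, higher with HET fathers. With the brightest probe of each gene, 8 of 9 genes had a higher mean with HET fathers, against 50.7% of all tested probes, and the median difference was 0.25 against 0.00 over all. Without WT father replicate 4, 4 of the 9 had a higher mean and the median was -0.01.

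**Figure D2:**
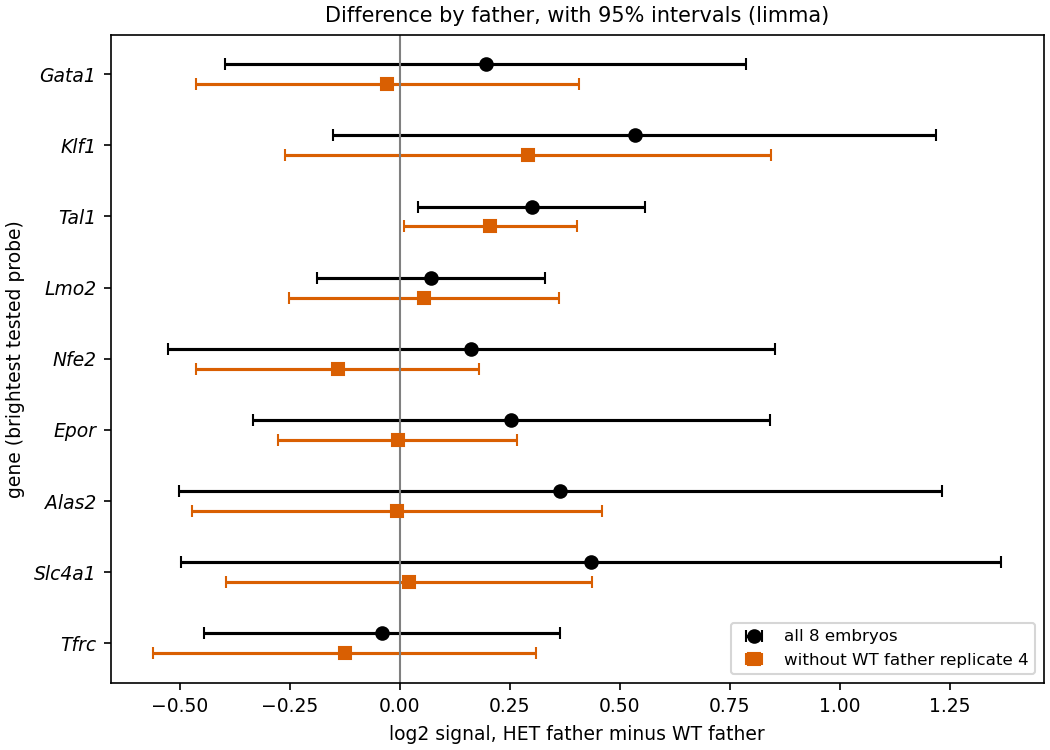
Difference in log2 signal, HET fathers minus WT fathers, for the 9 genes with 95% intervals from limma, in all 8 embryos (black circles) and without WT father replicate 4 (orange squares). Leaving that embryo out moves *Gata1*, *Nfe2*, *Epor* and *Alas2* below 0 and *Slc4a1* from 0.43 to 0.02, while *Tal1* stays above 0 in both.

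Embryo sex was balanced over the slides, so its difference was taken within them. All 9 genes had a higher mean in females, against 45.5% of all tested probes, with a median difference of 0.45 against -0.02 over all. Without WT father replicate 4 it was 8 of 9, with a median of 0.24. In the lists described below, the mean was higher in females in 9 of 9 yolk sac endoderm genes and 7 of 8 heme enzymes. The same held for 7 of 8 globins, 15 of 19 membrane genes, 11 of 19 iron handling genes, 11 of 20 partner regulators and 1 of 12 endothelial genes. The higher means in females were therefore not particular to the 9 genes. No probe of the 9 genes was called, against 0.0332% of all tested probes, and 1 of 11 had an unadjusted p under 0.05, against 3.28%, of which 2.0% higher in females. That probe was *Gata1*, with a female mean of 3.45 ± 0.08 and a male mean of 2.88 ± 0.33 (SD, n = 4 each).

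*Gata1* was 1.48-fold higher in females (log2 difference 0.57, SE 0.16, 95% interval 0.20 to 0.94; limma, unadjusted p = 0.0093, adjusted p = 1.00). Female values ran from 3.36 to 3.55 and male values from 2.40 to 3.14, without overlap. Within the slides the difference was 0.77 with WT fathers and 0.37 with HET fathers, each from 2 females and 2 males. Without WT father replicate 4 it was 0.42 (SE 0.09).

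*Epor* and *Nfe2* were also without overlap between the sexes, so 3 of the 9 genes were, against 2.57% of all tested probes. *Epor* ran from 3.09 to 3.20 in females and from 2.02 to 2.96 in males, a difference of 0.45 (SE 0.20; limma, unadjusted p = 0.064). *Nfe2* ran from 1.26 to 1.60 in females and from 0.12 to 1.16 in males, a difference of 0.50 (SE 0.25; limma, unadjusted p = 0.089). Both differences were smaller without WT father replicate 4, at 0.24 for *Epor* (SE 0.07) and 0.24 for *Nfe2* (SE 0.11). For each of these 3 genes the exact two-sided permutation p was 0.0286, the smallest possible here. That test shuffled sex over all embryos without regard to slide. Its p is fixed by the lack of overlap, so it adds no separate support.

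The other X-linked gene, *Alas2*, was not separated by sex. Its female values ran from 2.34 to 2.95 and its male values from 1.13 to 2.59, and the difference was 1.06 within WT father embryos but 0.08 within HET father embryos. Among HET father embryos 7 of the 9 genes had a higher mean in females with a median difference of 0.21, and among WT father embryos, which include replicate 4, all 9 did with a median of 0.75. The difference between these effects was not past the test in any of the 11 probes (limma interaction, 0 called, against 0.0% of all tested probes). None of the 11 had an unadjusted p under 0.05 for the interaction in limma, against 2.23%, and the lowest was 0.112, for *Tal1*.

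**Figure D3:**
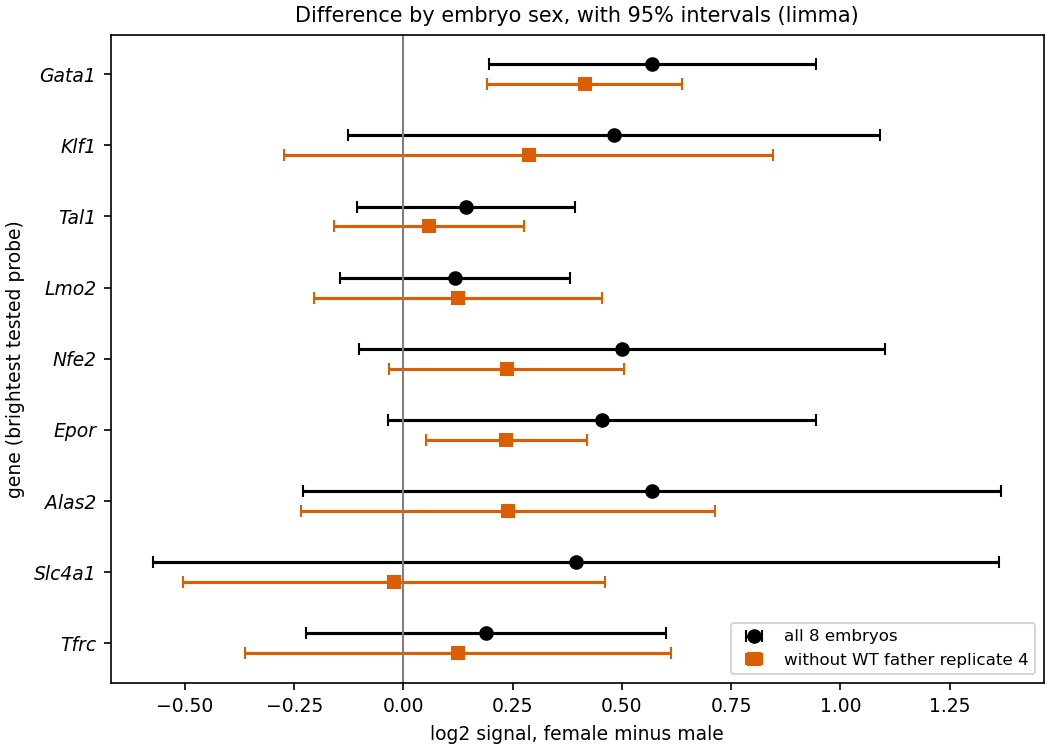
Difference in log2 signal, females minus males, for the 9 genes with 95% intervals from limma, in all 8 embryos (black circles) and without WT father replicate 4 (orange squares). With all 8 embryos only *Gata1* has an interval above 0. Without that embryo *Slc4a1* moves from 0.39 to -0.02. It was left out for its low values, so the intervals without it are no separate test.

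The 9 genes were then compared across embryos with each other. Over the 36 pairs the median Pearson r was 0.80 (n = 8 embryos), and 18 pairs were above 0.8. In an exact two-sided permutation test 9 pairs had an adjusted p under 0.05 for Pearson's r and 1 for Spearman's rho, for which the median was 0.49. The highest was *Nfe2* with *Epor* (r = 0.98, exact permutation p = 0.0006, adjusted p = 0.0077, rho = 0.90, exact permutation p = 0.0046, adjusted p = 0.055). *Gata1* with *Epor* had r = 0.95 (exact permutation p = 0.0002, adjusted p = 0.0076) and rho = 0.95 (exact permutation p = 0.0011, adjusted p = 0.041).

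Much of this rested on WT father replicate 4. Without it the median r was 0.30 and 0 pairs had an adjusted p under 0.05, and without the 2 embryos farthest from the median of each first gene the median r was 0.33. *Gata1* with *Epor* was at 0.95 after the 2 farthest embryos were left out, *Gata1* with *Nfe2* was at 0.88 and *Nfe2* with *Epor* at 0.83. By contrast *Alas2* with *Slc4a1*, at r = 0.96 over all 8 embryos, was at 0.61, and *Epor* with *Slc4a1* went from 0.91 to -0.07. *Lmo2* and *Tfrc* had r of -0.14 to 0.43 against every other gene over the 8 embryos. With arrays aligned on their medians their r ran from 0.48 to 0.92. With quantile normalization, however, it ran from -0.25 to 0.43, and with group means subtracted from -0.13 to 0.49. The log2 median signal of HET father replicate 3, which median alignment takes out, was 6.87 against 5.84 to 6.25 in the others.

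The low embryo was described gene by gene and then in the rest of the erythroid programme. WT father replicate 4 was below the median of the other 7 embryos in all 9 genes. The gap was largest in *Slc4a1* (-1.67) and *Alas2* (-1.46), about equal in *Nfe2* (-1.14), *Epor* (-1.07), *Klf1* (-1.07) and *Gata1* (-0.96), smaller in *Tal1* (-0.56) and *Tfrc* (-0.38), and smallest in *Lmo2* (-0.05). The median gap was -1.07, against 0.03 over all tested probes. Whole-embryo RNA cannot separate fewer red cells from less RNA per red cell.

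In the heme pathway outside *Alas2*, 5 of 8 enzymes were lowest in this embryo, with a median gap of -0.51. *Ppox*, which makes protoporphyrin, was at 0.42 there against 0.86 to 1.86 in the others, and *Fech*, which inserts the iron, was at 3.33 against 3.69 to 4.14. *Alas1*, the form of the first enzyme found in all tissues, was at 3.67 within a range of 3.56 to 3.76.

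Of the 19 red cell membrane genes 13 were lowest in this embryo, with a median gap of -0.62. *Rhag*, of the Rh complex, had a gap of -1.75, *Kel* of -1.46 and *Ermap* of -1.25. *Epb42*, protein 4.2 of the membrane skeleton, was at -2.56 against -1.82 to -1.09 in the others. *Slc2a1*, *Aqp1*, *Epb41* and *Cd24a* were within 0.1 of the median of the other embryos. *Sptb* and *Dmtn* were not lowest there either. *Sptb* was at -4.34 against -5.38 to -3.74 in the others, and *Dmtn* at -1.60 against -1.96 to -0.67. The summed signal of the list was 247 times the 75th percentile in this embryo and 246 to 265 times in the others.

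Of 8 globins with a tested probe 7 were lowest there, with a median gap of -0.98. The embryonic globins were included, with *Hba-x* at 6.50 against 7.35 to 7.75, *Hbb-y* at 5.75 against 6.96 to 8.38 and *Hbb-bh1* at 8.32 against 8.58 to 8.98. The adult-type pairs *Hba-a1* and *Hba-a2* and *Hbb-bs* and *Hbb-bt* are near-identical, and their probes can share signal. *Hbb-bt* was the exception and did not follow the other globins, with its lowest value in HET father replicate 4.

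The genes named here for this embryo, other than the 9, were chosen after their values were seen.

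**Figure D4:**
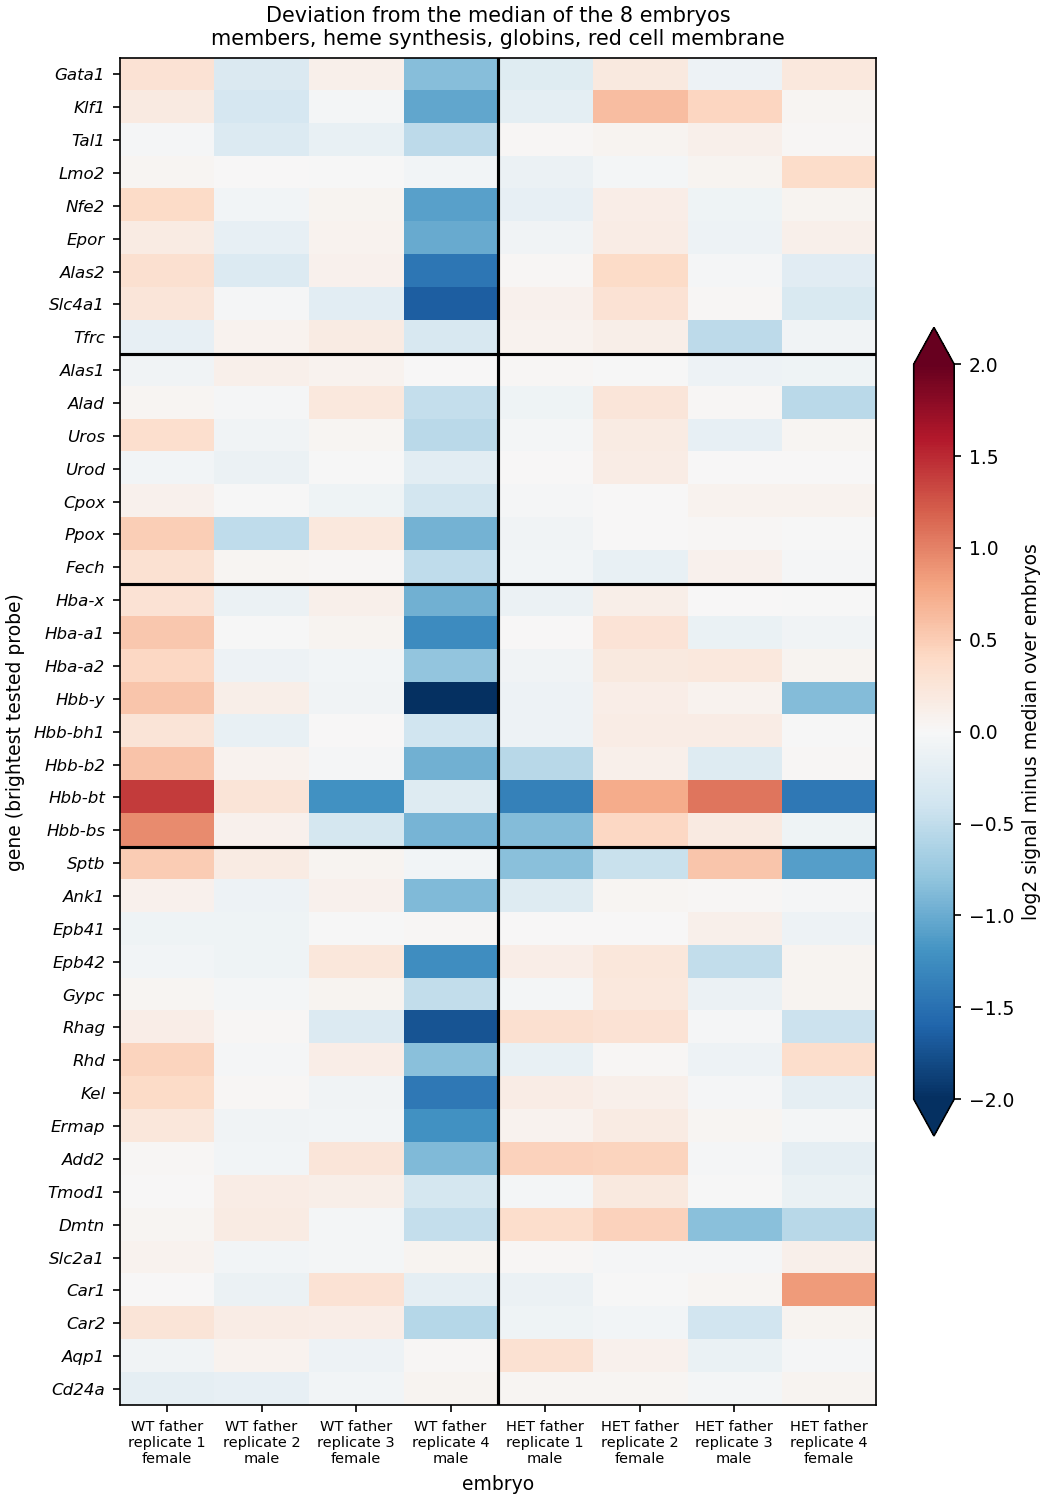
Log2 signal of the 9 genes, 7 heme synthesis enzymes, 8 globins and 17 red cell membrane genes in each embryo, coloured by the difference from the median of the 8 embryos (blue lower, red higher, colours saturate at 2 units). The column of WT father replicate 4 is blue in most rows, with *Lmo2*, *Alas1*, *Sptb*, *Epb41*, *Slc2a1*, *Aqp1* and *Cd24a* near white.

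Gaps were smaller among the signalling and transcriptional partners. Of 20 partner regulators 8 were lowest in WT father replicate 4 (median gap -0.07). They were *Ikzf1* (-0.80), *Gfi1b* (-0.71), *Lyl1* (-0.43), *Zfpm1* (-0.32), the cofactor of GATA1, *Mafk*, *Ldb1*, *Nfe2l2* and *Cbfa2t3*. *Myb*, at -1.01 against -1.31 to -0.99 in the others, and *Bcl11a*, at -3.70 against -3.93 to -3.24, were not lowest there. *Gata2*, which precedes GATA1, was 0.13 above the median of the others, and *Runx1* was -0.29 from it. Of 12 erythropoietin and Kit signalling genes 3 were lowest (median gap -0.12), and the receptor *Kit* was at 1.40, the highest of the 8 embryos. Of 19 iron handling genes 11 were lowest (median gap -0.23), with *Hmox1* at -0.90 and the mitochondrial iron importer *Slc25a37* at -0.80.

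Markers of other cell types were read in the same embryo. None of 12 endothelial genes was lowest there and 3 were highest, *Kdr*, *Etv2* and *Fli1*, with a median gap of 0.02. The summed endothelial signal ran from 28.9 to 39.6 times the 75th percentile over all embryos. Of 9 yolk sac endoderm genes 7 were lowest (median gap -0.41), including *Afp* at 6.82 against 7.27 to 7.67 and *Ttr* at 5.91 against 6.14 to 6.39. The transferrin gene *Trf* is in both this list and the iron handling list. Their summed signal was 517 times the 75th percentile in this embryo and 634 to 737 times in the others, while that of the 9 genes was 29.9 against 48.5 to 62.1. Of the macrophage markers 4 of 10 had a tested probe, of the megakaryocyte markers 7 of 10 and of the decidua and trophoblast markers 6 of 10, with 2, 3 and 0 lowest in this embryo. Probes of the leukocyte markers *Ptprc*, *Spi1* and *Adgre1* did not pass the filter on dim probes. The part of yolk sac tissue in the erythroid values was not tested.

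The number of spots well above background in WT father replicate 4 was 38358, within the range of the others, and its 75th percentile (10.14 on the log2 scale) lay between 9.88 and 10.32 in the others. WT father replicates 2 and 3, which share its code, had median deviations of the 9 genes of -0.16 and 0.05 from the median of the 8 embryos, against -1.01 in replicate 4.

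**Figure D5:**
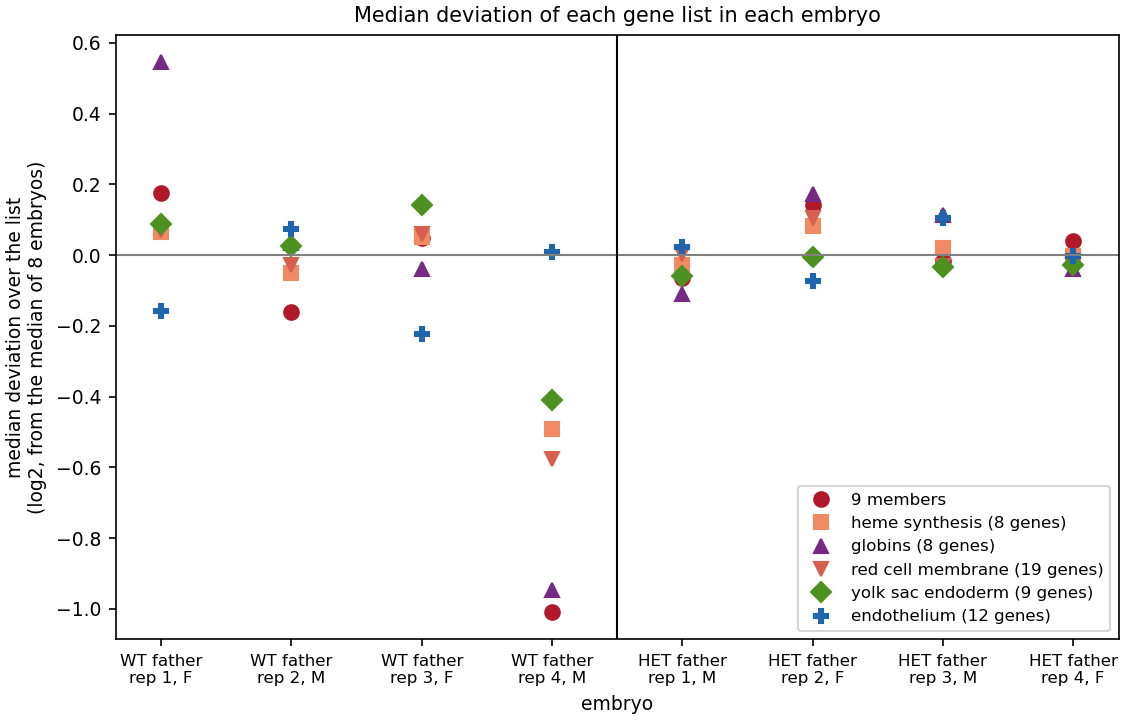
Median deviation of 6 gene lists from the median of the 8 embryos (log2, vertical axis) in each embryo (horizontal axis), with 1 symbol per list. In WT father replicate 4 the 9 genes are at -1.01, the globins at -0.95 and the yolk sac endoderm genes at -0.41, while the endothelial genes are at 0.01.

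Outside the 9 genes, the lists were compared by father in the same way. None of their genes was called by limma. At an unadjusted p under 0.05 were 1 of 19 iron handling genes and 1 of 6 decidua and trophoblast genes. No other list held any, and the share over all tested probes was 4.4%. The iron handling gene was *Steap3*, the ferrireductase that reduces endosomal iron (log2 difference 0.37, limma, unadjusted p = 0.043). The other was the decidual prolactin *Prl8a2* (-2.45, limma, unadjusted p = 0.013). *Steap3* read -1.20, -0.86, -0.97 and -1.51 with WT fathers and -0.77, -0.83, -0.88 and -0.56 with HET fathers, with overlap between the groups. *Prl8a2* read 1.99, 2.92, 1.56 and 2.31 with WT fathers and 0.72, 0.31, -2.61 and 0.54 with HET fathers. Its groups did not overlap, as was true of 3.23% of all tested probes.

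Median differences by father were 0.09 for the heme enzymes, 0.11 for the membrane genes, 0.15 for the globins, 0.09 for iron handling and 0.02 for the partner regulators, and without WT father replicate 4 they were -0.08, -0.05, -0.25, 0.03 and -0.04. The pair with the largest difference in each list was *Ppox* (0.18) and *Urod* (0.14) for heme synthesis, *Sptb* (-0.63) and *Rhag* (0.50) for the membrane, *Hbb-bt* (-0.29) and *Hba-a2* (0.23) for the globins, *Foxo3* (0.25) and *Lyl1* (0.19) for the partners, and *Cish* (0.20) and *Stat5a* (-0.15) for signalling. Among the other cell types it was *Tek* (0.18) and *Tie1* (0.18) for endothelium, *Gp1ba* (0.40) and *Gp1bb* (-0.24) for megakaryocytes, *Tyrobp* (-0.41) and *Mrc1* (0.24) for macrophages, and *Apoa4* (-0.44) and *Apob* (-0.36) for yolk sac endoderm. None of these pairs passed the test. *Foxo3* and *Sptb* were read at low signal, -5.81 to -2.97 and -5.38 to -3.74 over the embryos.

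Each gene was lastly compared with the mean pattern of the 9 genes, each centred and divided by its SD over the 8 embryos. Of 15359 genes 63 had r above 0.9, and among the highest that are not of the 9 were *Acp5* (0.98), *Hba-x* (0.97), *Itsn2* (0.97), *Chchd10* (0.97), *Ssx2ip* (0.96), *Spns2* (0.96) and *Gypc* (0.96). These 7 were well above background on all arrays, and all were lower in WT father replicate 4 than the median of the others, by gaps from -0.36 in *Itsn2* to -0.97 in *Hba-x*. Without that embryo the r of these genes ran from 0.56 in *Itsn2* to 0.91 in *Acp5*. They were ranked on this measure, so no test is given. Among the lists, the median r was 0.84 for the globins, 0.81 for the membrane genes, 0.79 for the heme enzymes, 0.72 for the yolk sac endoderm and -0.33 for the endothelium.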

How the data were processed

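RNA of 8 single E8.5 embryos was read on Agilent SurePrint G3 8x60K one-colour arrays. The authors extracted features with Agilent Feature Extraction 11.0.1.1 and deposited processed signal intensities, background-subtracted and spatially detrended, with flags for outliers and for spots well above background. From the deposited intensity the log2 value was taken and each array's 75th percentile over non-control spots was subtracted. Spots flagged as outliers were dropped, and replicate spots were averaged per probe. Probes well above background on at least 4 of 8 arrays and not in the lowest 20% by mean were tested (33093 of 55681) with limma 3.58.1 in R 4.3.3, by father without covariates and by sex with father as covariate, with Benjamini-Hochberg adjustment over all tested probes. A call needed an adjusted p under 0.01 and a 2-fold change. The study's methods give the filter and threshold but name no test and no percentile. A deposited table of the whole series, whose intensities differed from these by at most 0.497%, was used as an alternative after log2. A gene's brightest tested probe stands for it in lists. Exact permutation tests used scipy 1.17.1. The fit was tested on simulated data. Genes named were all probes of the 9 genes, in each list the genes at an unadjusted p under 0.05 by father or else the pair with the largest difference, and the 8 genes most correlated with the mean of the 9, except for a few genes that are not reported here. Members, lists and rules were chosen with earlier results of these data known. Alternatives covered the alignment of arrays, background correction, filters, covariates, blocks, array weights and leaving out each embryo. Precision is limited by the number of arrays.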

Additional observations from a re-analysis of the deposited data

Results flagged for a closer look

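Among 262 groups of 4 embryos examined (the probes of the 9 genes and of list genes, in each father group), 16 had 1 embryo far from the other 3, with a gap over the whole range above Dixon's 95% critical value for 4 samples, and chance gives about 1 in 20. None was a probe of the 9 erythroid genes. In WT father replicate 4 the low values were *Slc25a28* (0.883), *Mafk* (0.87), *Slc11a2* (0.868), *Ttr* (0.852), *Car2* (0.849), *Amn* (0.844) and *Cubn* (0.839). High values were found in WT father replicate 1 for *Cbfa2t3* (0.954) and *Cish* (0.88), in HET father replicate 2 for *Urod* (0.932) and *Afp* (0.839), in HET father replicate 3 for *Aco1* (0.89) and in HET father replicate 4 for *Car1* (0.839). Low values were found in WT father replicate 3 for *Flt1* (0.883) and in HET father replicate 3 for *Prl8a2* (0.876) and *Prl3d1* (0.873).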

How the results depend on the processing

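Under every alternative run, no probe of the 9 genes was called by father, sex or their interaction, and the smallest adjusted p was 0.43 by father and 0.61 by sex (limma). The number of the 11 probes at an unadjusted p under 0.05 by father was 1, but 0 with arrays aligned on their medians, 0 with a random block for the code of the embryo, 2 with quantile normalization, 2 with normexp on the median spot signal, and 0 to 2 when each embryo was left out in turn. By sex it was 1, but 0 with arrays aligned on their medians, 2 with quantile normalization, 2 with array weights, and 1 to 3 when each embryo was left out. Over all tested probes that count was 1455 by father, lowest after median alignment (479) and highest without a filter on dim probes (5360 of 55681), and 1084 by sex, lowest after median alignment (255) and highest when arrays were weighted (2318). Calls by sex over all tested probes numbered 11, but 0 with the replicate block, 0 with probes well above background on all 8 arrays, 5 with no filter on dim probes, 7 without WT father replicate 1 and HET father replicate 3 together, and 4 to 9 when each embryo was left out. Aligning arrays on their medians moved the median of all tested probes to -0.10 by father and 0.13 by sex. The difference by father turned for *Lmo2* (-0.036 aligned on medians) and *Tfrc* (0.0038 with array weights, 0.066 without WT father replicate 1 and HET father replicate 3 together, chosen after seeing the data). Leaving out each embryo gave -0.13 to 0.10 for *Tfrc*, -0.028 to 0.35 for *Gata1*, -0.14 to 0.35 for *Nfe2*, -0.0051 to 0.39 for *Epor*, -0.0056 to 0.58 for *Alas2* and -0.031 to 0.13 for *Lmo2* by father, and -0.022 to 0.63 for *Slc4a1* by sex. The median r between the 9 genes was 0.80, but 0.30 without WT father replicate 4, 0.43 without it and with group means subtracted, both chosen after seeing the data, and 0.33 without the 2 farthest embryos. It was 0.84 with group means subtracted and 0.87 with arrays aligned on their medians. The 9 pairs past the test by Pearson's r and 1 by Spearman's rho became 21 and 9 with group means subtracted, 30 and 16 after median alignment, 12 and 4 with quantile normalization, and 0 and 0 without WT father replicate 4. Same-numbered embryos of the father groups deviated with r of -0.55, -0.05, -0.59 and -0.15, and differently numbered ones with r of -0.52 to 0.66. No likeness by number was thus seen, and these r cannot tell whether the numbers pair embryos in handling or by sire. With the replicate block 0 of 11 probes by father and 2 by sex had an unadjusted p under 0.05, and 0 were called. The interaction with the replicate block could not be fitted because its terms are collinear. Normexp used the median spot signal in place of the mean. The causes were not tested.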
